A study of Mus musculus with 5 samples.

Results

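Crim1 was examined through an 80 kb stretch of mouse chromosome 17, at file positions 76745000 to 76824999 of a tiling array. The stretch was selected on measured values, namely the rise of MEFB polyA RNA over MEFF polyA RNA in 5 kb windows. That contrast is therefore described here, and limma's calls for it, given last, are no test of the stretch. The rule that gave the stretch also names windows and single bright probes in all 5 arrays. The levels on each array and the bright probes are thus not independent of the choice. It holds 16 of the 15383 windows with at least 8 probes, and 516 of the 387986 chromosome 17 probes. The level of a probe is log2 of its cDNA signal over its genomic DNA signal, centred on the array's median, and the level of a window is the mean of its probes.

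Crim1 encodes a single-pass transmembrane protein with an extracellular domain related to insulin-like growth factor binding proteins and a series of cysteine-rich repeats of the chordin type. It binds bone morphogenetic proteins (BMPs) made in the same cell and affects their processing and delivery to the cell surface. It is known from the development of the kidney, the eye and blood vessels, and mesenchymal cells express it.

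The samples were RNA of 2 fibroblast lines, MEFF and MEFB, which arose by spontaneous immortalisation from embryos at 12.5 dpc of strain FVBN. MEFF has the genotype Thp/+ and MEFB +/Thp, so each carried the Thp deletion on 1 parental copy of chromosome 17, and no array was of cells without it. The deletion spans at least 4.6 Mb between T and Sod2 (8.6 to 13.2 Mb in mm9), and Crim1 lies outside it. MEFF was hybridised as total RNA (2 arrays) and as polyA RNA (2 arrays), and MEFB as polyA RNA (1 array). No label gives a treatment, or separate cultures for arrays of a group, so the spread between arrays may be technical. MEFB had 1 line and 1 array, so the line, the parental copy and the array cannot be told apart, and no value of MEFB has a replicate. On each array, Cy3 carried double-stranded cDNA and Cy5 sonicated genomic DNA of the same line. Dyes were not swapped, and such cDNA keeps no strand. The usual fibroblast markers lie on other chromosomes, so the labelled cell type could not be checked on this array.

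No source used here names the build of the file positions, and they did not match NCBIM37 directly. Blocks of 25 kb were therefore placed on NCBIM37 from the genomic DNA channel alone, with no cDNA value used. Of the 4 blocks that hold the stretch, 3 were accepted, with offsets within 9 bp of each other. Of these, 2 met the bar by their own signal, and 1 was accepted because its offset lay close to that of an accepted neighbour. The other, which holds exon 1, was placed between its neighbours and has no support of its own. The stretch then starts 2.0 kb inside Crim1 and covers 45.4% of its length. In NCBIM37, Crim1 (ENSMUSG00000024074.7) lies on the forward strand at chr17:78599588-78775932, is 176 kb long and has 17 exons in its 1 annotated transcript. Exons 2, 3 and 4 lay in the stretch. Exons 15 to 17 lay within the span of Fez2, a gene on the reverse strand (chr17:78768552-78817471). Of the 1185 probes placed in Crim1, 39 met an exon by at least 25 bases, and these reached 13 of the 17 exons.

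Of the sequences shown, exons 2 and 3 held the brightest probes of the stretch, and the promoter marks the side of the gene start near which the MEFB signal rose. The exons are from the NCBIM37 annotation, forward strand, at chr17:78637082-78637255 (174 bases) and chr17:78679313-78679555 (243 bases). The promoter is the 250 bases before the start in RefSeq, build GRCm38.p6, chr17:78199998-78200247, forward strand. Capitals mark CCAAT and GGGCGG there.
Crim1 exon 2: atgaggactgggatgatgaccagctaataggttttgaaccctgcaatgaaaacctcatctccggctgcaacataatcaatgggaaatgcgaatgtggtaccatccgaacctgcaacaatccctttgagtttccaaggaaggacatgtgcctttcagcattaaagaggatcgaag
Crim1 exon 3: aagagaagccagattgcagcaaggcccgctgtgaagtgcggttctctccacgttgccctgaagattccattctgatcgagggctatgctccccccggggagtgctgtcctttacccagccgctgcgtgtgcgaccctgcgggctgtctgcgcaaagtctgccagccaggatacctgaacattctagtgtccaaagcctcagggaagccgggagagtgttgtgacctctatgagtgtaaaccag
Crim1 promoter: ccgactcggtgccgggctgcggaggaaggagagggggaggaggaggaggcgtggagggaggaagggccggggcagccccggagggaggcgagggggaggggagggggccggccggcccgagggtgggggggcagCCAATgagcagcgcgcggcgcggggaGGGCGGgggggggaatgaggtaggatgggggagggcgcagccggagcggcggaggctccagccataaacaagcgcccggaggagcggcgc
CCAAT and GGGCGG, each searched on both strands and not overlapping each other, matched 1 time each. They are held by 33.8% and 32.7% of 32851 promoters of that length. TATAAA had no match here and is held by 12.4%. The GC content of this promoter was 77.6%, against a median of 52.4% over all. A match is a description of letters only.

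Averaged over the 16 windows, the total RNA arrays had levels of 0.27 and 0.24, the MEFF polyA arrays of 0.09 and 0.19, and MEFB of 0.96. MEFB was the highest array. The median window of the 16 ranked at the 85.9 and 84.3 percentile of all windows on the total RNA arrays, 76.3 and 74.8 on the polyA arrays of MEFF and 92.5 on that of MEFB, so the stretch lay above the array's middle on all 5 arrays. MEFB minus the MEFF polyA mean was 0.82, with an SD between the MEFF polyA arrays of 0.068 (n = 2), and it ranged from 0.6 to 1.15 over the windows. The median over the 16 windows was 0.81, and over all windows it was 0.01. MEFB stood above all 4 MEFF arrays in 16 of 16 windows, against 30.9% of all windows. Since this contrast chose the stretch, nothing is read from that count. Read as ranks, which do not depend on an array's range, the 16 windows lay between the 87.2 and 96.2 percentile of all windows in MEFB. Those of the total RNA arrays lay from 51.0 to 94.6 and from 43.8 to 95.7. Those of the MEFF polyA arrays lay from 22.9 to 86.9 and from 33.8 to 86.3. The lowest MEFB window ranked above the highest of both MEFF polyA arrays. The same contrast chose the stretch, so nothing is read from that order either. The ranges of the total RNA arrays overlapped that of MEFB.

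**Figure D1:**
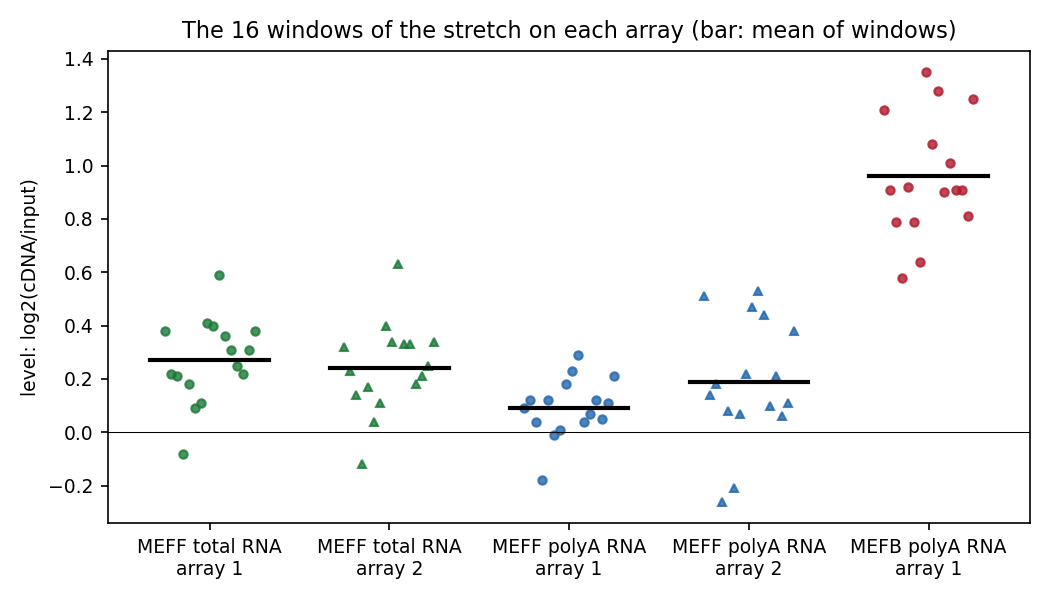
Level, log2(cDNA/input) centred on the array median, of the 16 windows of the Crim1 stretch on each of the 5 arrays. Each point is a 5 kb window in order of position and each bar is the mean of the 16 windows, which was 0.96 in MEFB and between 0.09 and 0.27 on the MEFF arrays.

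The signal was spread over the whole stretch, with a shared shape. The highest MEFB window started at 76780000 and holds exon 2. Its levels were 0.41 and 0.40 with total RNA, 0.18 and 0.22 with polyA RNA of MEFF and 1.35 with that of MEFB. The window from 76790000, which holds no exon, had levels of 0.59 and 0.63, 0.29 and 0.53, and 1.28 in the same order, and was the brightest of the 16 on each MEFF array. The window from 76760000 was the lowest of the 16 on all 5 arrays, at -0.08 and -0.12, -0.18 and -0.26, and 0.58. Across the 16 windows, the arrays correlated pairwise with r between 0.73 and 0.98, as a description of windows that share their probes. Split at its midpoint, the stretch gave MEFB minus MEFF polyA values of 0.83 for the first 40 kb and 0.81 for the last.

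The edges of the stretch were not equally sharp. Just inside its start, the window from 76745000 stood at 0.38 and 0.32 with total RNA, 0.09 and 0.51 with polyA RNA of MEFF and 1.21 with that of MEFB. Just outside, the window from 76740000, in which Crim1 starts, stood at 0.11 and 0.11, 0.20 and 0.37, and 0.34, with MEFB within the MEFF polyA range. Over the 200 kb before the stretch (35 windows), the 5 levels were -0.25, -0.24, -0.15, -0.33 and -0.14, and MEFB minus MEFF polyA was 0.10. The MEFB input was lower there than the MEFF input (difference -0.22), and its part in that 0.10 was not tested. At the other edge, the last window inside (76820000) stood at 0.38 and 0.34, 0.21 and 0.38, and 1.25. The first window outside (76825000) stood at 0.30 and 0.20, 0.04 and 0.12, and 0.64, so MEFB still lay above all MEFF arrays there.

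The MEFB excess went on through the rest of Crim1. Over the 18 windows from 76825000 to 76914999, the level was 0.09 and 0.05 with total RNA, 0.05 and 0.08 with polyA RNA of MEFF and 0.74 with that of MEFB. MEFB minus MEFF polyA was 0.67 there, and MEFB stood above all MEFF arrays in 18 of 18 windows, against 30.9% of all windows. The largest differences there were 0.90, 0.82 and 0.81, in the windows from 76905000, 76880000 and 76895000, within the range of the windows of the stretch. The window that holds the end of Crim1 (76915000) was bright on all arrays, at 0.70 and 0.73 with total RNA, 1.09 and 1.90 with polyA RNA of MEFF and 2.63 with that of MEFB. Transcripts of Fez2 are read by the same probes there, so the parts of the 2 genes cannot be told apart. Over the 9 windows of Fez2 beyond Crim1, MEFB minus MEFF polyA fell to 0.25, with an SD between the MEFF polyA arrays of 0.16 (n = 2). The median over these windows was 0.34, and MEFB stood above all MEFF arrays in 6 of 9, against 30.9% of all windows. In the 11 windows after Fez2, the mean difference was -0.01.

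**Figure D2:**
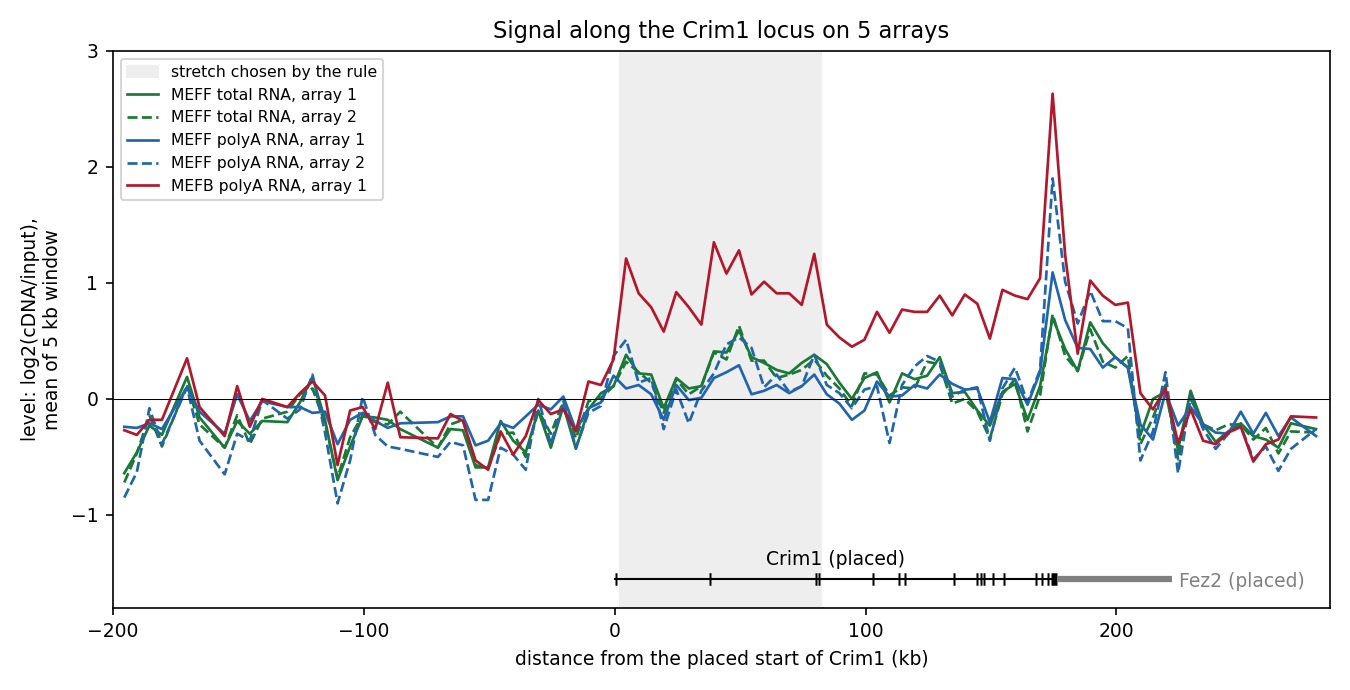
Level of each 5 kb window, log2(cDNA/input) centred on the array median, against distance in kb from the placed start of Crim1, with 1 line per array. The grey band is the stretch, and black marks are Crim1 exons. MEFB averages 0.96 over the band and 0.74 over the rest of the gene, while the MEFF arrays stay between 0.05 and 0.27 on average.

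Exon and intron probes of Crim1 showed the lines' difference alike in direction. The rule used neither annotation nor probes outside the stretch, but the contrast is the same, so these values are given with no test. Over the 24 exon probes outside the Fez2 span, the mean level was 1.07 and 1.11 with total RNA, 1.97 and 2.88 with polyA RNA of MEFF and 3.83 with that of MEFB. MEFB minus MEFF polyA was 1.40, with an SD between the MEFF polyA arrays of 0.65 (n = 2). The arrays differed in range, with a 99th percentile of cDNA of 20.7 times the median in MEFB, against 9.17 and 22.4 on the MEFF polyA arrays. The part of that range in the difference was not tested beyond the quantile value given below. Over the 1121 intron probes outside that span, the levels were 0.15 and 0.12, 0.03 and 0.08, and 0.77, and the difference was 0.71 (SD 0.029, n = 2). MEFB stood above all 4 MEFF arrays in 21 of 24 exon probes and in 845 of 1121 intron probes (75.4%), against 27.9% of all probes. Within the stretch, the count was 402 of 516 probes (77.9%). The exon difference was 0.95 after quantile normalization between arrays and 1.15 after normexp, a background correction of each channel, and the intron difference was 0.51 and 1.04. The exon value was the larger each time, by a margin that depended on the scaling. With 1 MEFB array, that margin was not tested.

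**Figure D3:**
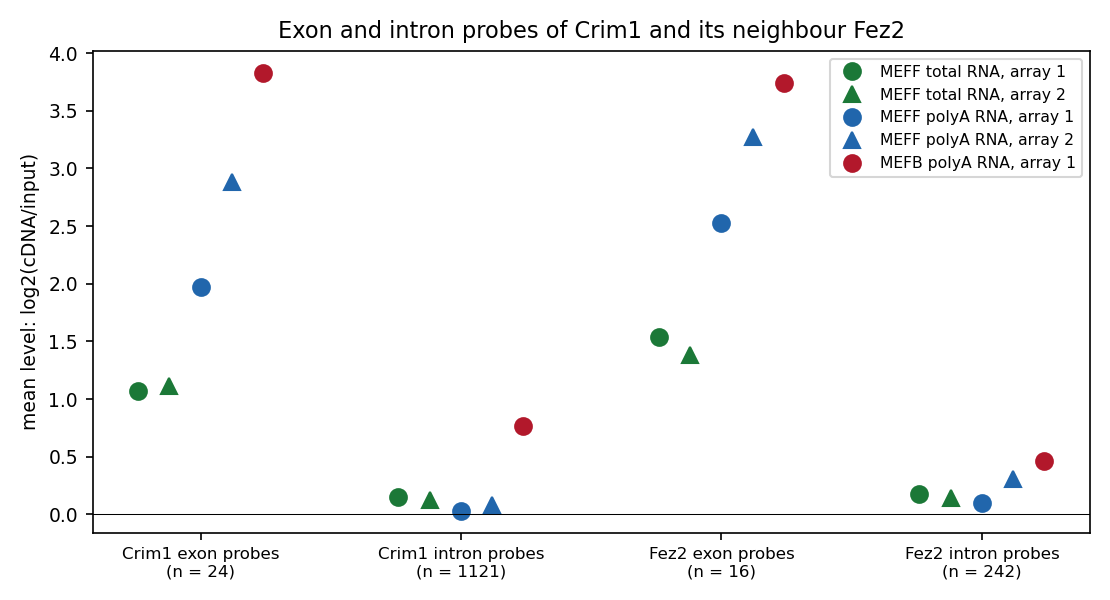
Mean level, log2(cDNA/input) centred on the array median, of exon and intron probes of Crim1 and Fez2 outside each other's span, with 1 point per array and the number of probes under each group. For Crim1, MEFB is highest in both classes (3.83 and 0.77). The total RNA arrays are lowest in exons (1.07 and 1.11) but not in introns.

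Exon by exon, MEFB was the highest array in 13 of the 13 exons with a probe. By the mean over all exon probes of a gene, it was so in 23.9% of 503 placed genes with at least 5 such probes. That share is over genes, and none was made over single exons. Across the 13 exons, MEFB minus MEFF polyA lay between 0.56 and 2.58, with a median of 1.53. Exon 1, with 5 probes, gave the smallest difference, with levels of 0.12 and 0.35 with total RNA, 0.68 and 1.55 with polyA RNA of MEFF and 1.68 with that of MEFB. Exon 13 had 1 probe and the highest MEFB level, 5.93, against 1.72 and 2.19 in total RNA and 3.47 and 4.74 in MEFF polyA RNA. The last exon, with 13 probes, lies within the Fez2 span and stood at 1.26 and 1.29, 2.2 and 3.33, and 4.40. Most exons rested on 1 to 3 probes, so the order of the exons is not informative. Among the 13 introns with at least 8 probes, MEFB was again the highest array in each. By the mean over all intron probes of a gene, it was so in 28.6% of 437 placed genes, and no share was made over single introns. These exons and introns belong to 1 gene chosen by this contrast and share the 1 MEFB array, so nothing is read from either count. The intron difference lay between 0.51 and 0.92 with a median of 0.74. Intron 1 (36.6 kb, 242 probes) gave 0.74, intron 2 (42.1 kb, 261 probes) gave 0.82 and intron 4 (21.6 kb, 154 probes) gave 0.55. A short RNA gene annotated as a miRNA, AC103598.1 (chr17:78702001-78702086), lies inside intron 4 on the same strand, and is not resolved from Crim1 here.

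**Figure D4:**
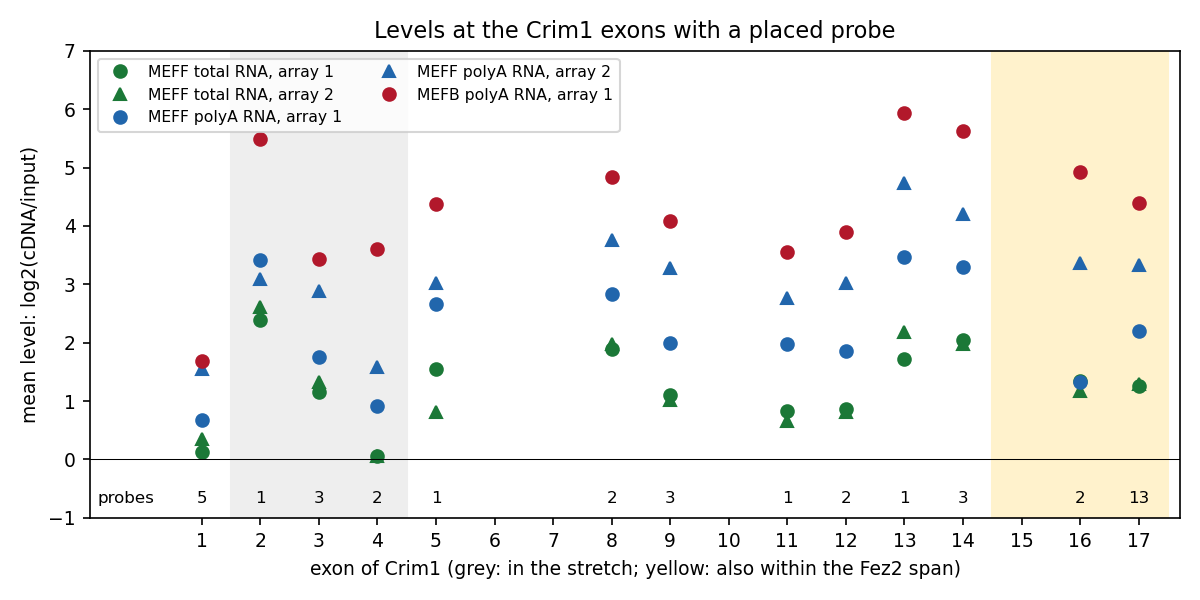
Mean level, log2(cDNA/input) centred on the array median, at each Crim1 exon with a placed probe, with 1 point per array and the number of probes under each exon. Grey marks exons in the stretch and yellow those also within the Fez2 span. MEFB is the highest array at each of the 13 exons, from 1.68 at exon 1 to 5.93 at exon 13.

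Single bright probes of the stretch fell on exons. A probe was called bright where its level reached the 99th percentile of its array, which was 1.95 and 1.91 with total RNA, 2.96 and 4.13 with polyA RNA of MEFF and 3.87 with that of MEFB. Of the 516 probes, 4 were bright on at least 1 array, against 6636 of all 387986 probes, and all 4 met an exon. All 4 were bright in MEFB, where they made up 0.775% of the stretch, against 1.0% of all probes. The stretch was thus not rich in bright probes. The rule names single bright probes in all 5 arrays, so these probes are a description. Probe 76822564, in exon 3, was bright on all 5 arrays. Its levels were 2.25 and 2.57 with total RNA, 3.23 and 4.70 with polyA RNA of MEFF and 5.36 with that of MEFB. Probe 76780397, in exon 2, was bright on 4 arrays, with levels of 2.38 and 2.61, 3.42 and 3.09, and 5.48. The former gave MEFB minus MEFF polyA of 1.40 (SD 1.00, n = 2) and the latter 2.23 (SD 0.24, n = 2). MEFB stood above all 4 MEFF arrays at both probes, as it did in 27.9% of all probes. The stretch was chosen by this contrast, so nothing is read from that. The other 2, in exons 3 and 4, were bright in MEFB only, at 4.25 and 4.04. On the linear scale, the cDNA signal of the exon 2 probe was 44793 in MEFB against 18976 and 12299 in MEFF polyA RNA. Its input signal was 1912 against 1798 and 5868. These are raw intensities, not scaled between arrays, and are not compared as such. The array medians were 747 against 1568 and 569 for cDNA, and 1576 against 1631 and 2554 for input, in the same order. The input on MEFF polyA array 2 was thus the highest of the 3 at that probe, which lowers its ratio there.

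Of the 10 probes with the highest mean over the groups, 4 met an exon by at least 25 bases and the fifth met exon 2 by fewer. The other 5 lay 8257 to 17210 bases from the nearest exon. Their MEFB levels lay between 2.22 and 2.57, below the threshold of that array, and on the 4 MEFF arrays they lay between 0.52 and 1.47. No intron probe of the stretch was bright on any array. Over the 510 probes of the stretch outside exons, MEFB stood at 0.90 and the MEFF polyA arrays at 0.07 and 0.14, so the broad difference did not rest on the exon probes.

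The comparison of total with polyA RNA in MEFF asked which parts of the transcript each preparation holds. PolyA RNA is enriched for processed messages, and total RNA also holds unprocessed transcripts. In the stretch, total minus polyA was 0.12, with SDs of 0.021 and 0.068 (n = 2 each), and the 2 total RNA arrays lay above the 2 polyA arrays. It was 0.191 after loess, 0.214 after quantile normalization and 0.448 after normexp, and 0.069 as deposited without MEFF polyA array 1. Both total RNA arrays stood above both polyA arrays in 10 of 16 windows, against 14.2% of all windows. The window medians were 0.10 in the stretch and -0.01 over all. No window of the stretch passed limma's test (0 of 16, adjusted p from 0.57 to 1, with 2 at an unadjusted p under 0.05), and 0.0% of all windows were called higher. After quantile normalization, 3 of 16 passed (adjusted p from 0.011), against 2.53% of all windows. These values share the MEFF polyA arrays with the contrast that chose the stretch, and low MEFF polyA levels enter both. The rule names windows in all 5 arrays, so the total RNA levels are not independent of the choice either.

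Exons and introns of Crim1 differed in this comparison. Total RNA lay below both polyA arrays in 12 of 13 exons, and total minus polyA over the 24 exon probes was -1.34, with SDs of 0.03 and 0.65 (n = 2 each). By the mean over all exon probes of a gene, the same order was met in 73.8% of 503 placed protein-coding genes with at least 5 exon probes. The median difference over these genes was -0.82. No share over single exons was made. Over the 1121 intron probes, total minus polyA was 0.08, with SDs of 0.025 and 0.029. The median over 437 placed genes with at least 8 intron probes was -0.08. The value was 0.13 over the 510 intron probes of the stretch (SDs 0.023 and 0.053). It was 0.04 over the 600 beyond its end (SDs 0.026 and 0.0085), so most of it came from the chosen stretch. Single introns lay between -0.14 and 0.17. The directions held after quantile normalization (-0.49 in exons, 0.14 in introns) and after normexp (-1.52 and 0.35), which itself moved the median of all windows to -0.103. The total RNA arrays had the narrower range, with a 99th percentile of cDNA of 5.33 to 5.42 times the median against 9.17 and 22.4 on the MEFF polyA arrays. The part of that range in the exon difference was not tested beyond the quantile value. RNA type and slide series cannot be told apart either, since the total RNA arrays carry slide numbers of another series than the polyA arrays. Fez2 exons beyond Crim1 (16 probes) also lay lower in total RNA, at 1.54 and 1.38 against 2.53 and 3.27.

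The genomic DNA channel did not follow the lines' difference in the stretch. Its centred log2 level there was 0.24, 0.23, 0.14 and 0.22 on the MEFF arrays and 0.16 in MEFB. MEFB minus MEFF was -0.05 with an SD of 0.047 (n = 4), and MEFB lay within the MEFF range. In the cDNA channel alone, MEFB minus MEFF polyA was 0.851, about as large as in the ratio. The SD between the MEFF polyA arrays was 0.21 in that channel, against 0.068 in the ratio. The centred cDNA levels were 0.56 and 0.53 with total RNA, 0.27 and 0.56 with polyA RNA of MEFF and 1.26 with that of MEFB.

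The other genes were read from lists of chromosome 17 genes, over their exon probes. Of 7 genes in the wider neighbourhood, 6 could be placed, and Vit could not. MEFB stood above all MEFF arrays in 5 of the 6, Crim1 among them, and so in 4 of the 5 others. It did so in 23.9% of the 503 placed genes, whose median difference was -0.01. Fez2, an adaptor protein of axon growth, differed by 0.75 (MEFB 2.05, MEFF polyA 1.18 and 1.42) over all its exon probes. Over the 16 outside the Crim1 span, it differed by 0.84 (MEFB 3.74, MEFF polyA 2.53 and 3.27). Strn, the scaffold protein striatin, differed by 0.71 with an SD of 0.68 (MEFB 3.34, MEFF polyA 2.15 and 3.12). Rasgrp3, an activator of Ras proteins, differed by 0.92, with MEFB at 0.63 and the MEFF arrays below 0. Fam98a differed by 1.03. Ltbp1, which binds latent transforming growth factor beta (TGF-beta), gave -0.08. In introns, MEFB minus MEFF polyA was 0.71 for Crim1, 0.62 for Fam98a, 0.36 for Fez2, 0.19 for Strn, 0.0 for Rasgrp3 and -0.15 for Ltbp1, against a median of -0.05 over 437 placed genes with at least 8 intron probes. The difference between genes was not tested.

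Of 8 genes linked to BMP and TGF-beta signalling, 6 could be placed, and Twsg1 and Smoc2 could not. Their median exon difference was 0.24, and MEFB stood above all MEFF arrays in 2 of 6. Those 2 were Thbs2 and Crim1 itself, which was chosen for this difference (1.54 over its 39 exon probes). Without Crim1, the median was 0.08 and the count 1 of 5, near the 23.9% of all placed genes. Thbs2, the matrix protein thrombospondin 2, stood at 0.51 and 0.40 with total RNA, 1.33 and 2.02 with polyA RNA of MEFF and 5.32 with that of MEFB, a difference of 3.65. In its introns the difference was 1.06 (MEFB 0.91, MEFF polyA -0.14 and -0.18), against 0.71 for Crim1. In Tgif1, a repressor of TGF-beta target genes, MEFB lay between the MEFF polyA arrays (2.89, against 2.25 and 3.38). Vegfa, the vascular growth factor, also lay between them (3.59, against 3.44 and 4.57). Runx2, the transcription factor of bone formation, stood at 2.41 in MEFB against 1.60 and 2.42.

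Markers of other cell types were mostly not placed. Of 5 genes of macrophages and antigen-presenting cells, H2-Aa and H2-Ab1, the chains of an MHC class II molecule, could be read. Their exon levels lay between -0.49 and -0.05 on the 5 arrays, below the array median, and were lowest in MEFB. Pou5f1 (pluripotent cells) and Notch4 (endothelium) were not placed.

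**Figure D5:**
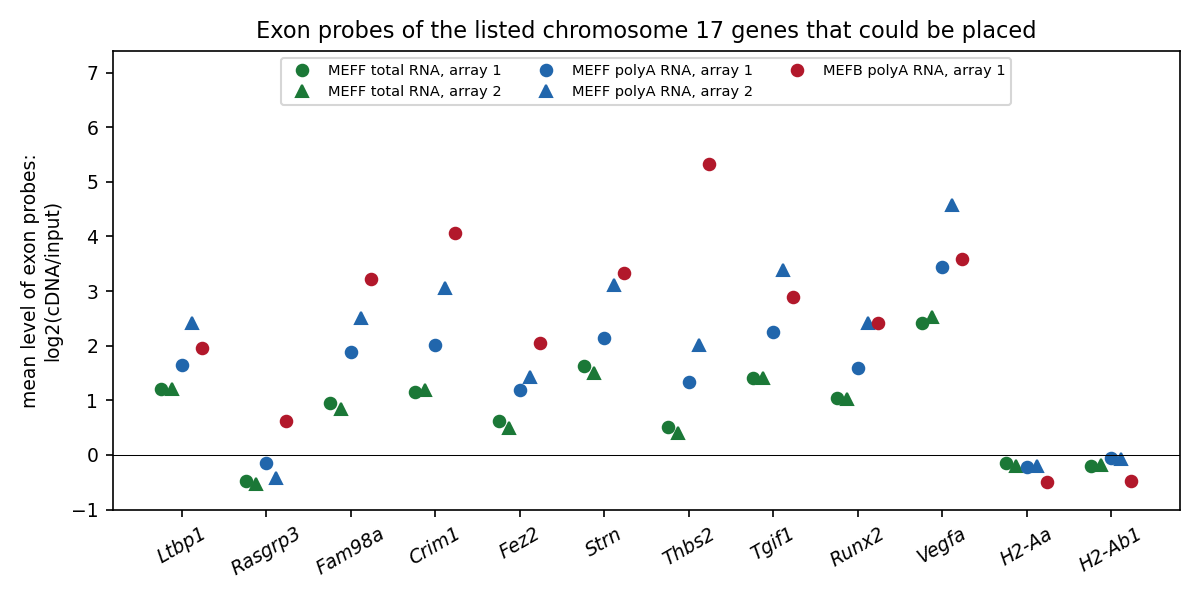
Mean level of exon probes, log2(cDNA/input) centred on the array median, for the listed genes that could be placed, with 1 point per array. Crim1 (MEFB 4.07) and Thbs2 (MEFB 5.32) are the genes of the BMP and TGF-beta list with MEFB above all MEFF arrays. H2-Aa and H2-Ab1 lie below 0 on each array.

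The 80 kb stretches with the most similar levels were ranked by Euclidean distance over the 5 array means, among 14895 candidates that did not overlap the Crim1 stretch. The nearest lay at 61165000 to 61244999 (distance 0.17), placed in Efna5, which encodes the guidance ligand ephrin A5. Its levels were 0.36 and 0.33 with total RNA, 0.09 and 0.18 with polyA RNA of MEFF and 0.84 with that of MEFB. The next lay at 79160000 (0.19, placed in the kinase gene Map4k3), 64345000 (0.21, not placed), 76840000 (0.23, the rest of Crim1 with part of Fez2) and 62290000 (0.23, of which 27.1% of probes were placed). Stretches within a distance of 0.23 were therefore met elsewhere on the chromosome.

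How many windows of the stretch passed limma's test between the lines (adjusted p under 0.05 over all windows, Benjamini-Hochberg) depended on the processing. This contrast chose the stretch, so the counts are no test of it and nothing is read from them. It was 0 of 16 as deposited (adjusted p from 0.066 to 0.23, and 16 at an unadjusted p under 0.05), where 0.0065% of all windows were called higher. It was 12 after normexp (1.96% of all), 16 after quantile normalization (3.69%), 16 after both (3.84%), 10 after loess (2.51%) and 12 with a trended prior (2.07%). As deposited, it was 16 without MEFF polyA array 1 or 2, where 26.2% and 22.5% of all windows were called higher. For total minus polyA the same omissions gave 3 and 5, against 11.9% and 4.54% of all. After normexp, it was 7 without either total RNA array (1.37% of all each), 15 without MEFF polyA array 1 (6.38%) and 16 without array 2 (3.24%). The lone array of MEFB is taken to vary like the MEFF arrays in each of these fits.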

How the data were processed

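The deposited values are raw probe intensities of 2-colour tiling arrays, 1 file for the cDNA channel and 1 for the genomic DNA channel. Per the file headers, NimbleScan 2.2.34 extracted them, and no normalization is named. Each array holds 387986 chromosome 17 probes, with a median spacing of 139 bp. From these, log2(cDNA/input) was computed per probe, with no pseudocount, centred on the array's median, and averaged in 5 kb windows with at least 8 probes. limma 3.58.1 (R 4.3.3) was fitted over all 15383 windows and 5 arrays, with 3 group means sharing a spread. Scripts were tested on simulated data.

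Probes were placed on NCBIM37 by fitting input signal to sequence composition, with 500 kb around Crim1 left out of training. At the file positions, the correlation over all chromosome 17 probes was 0.015. It was 0.57 in the accepted blocks on which the model was fitted, so these values are not like for like. In the blocks that hold the stretch, it was 0.36, 0.38, 0.50 and 0.47, each at the block's own best offset. A probe length of 50 bases was assumed. Of 3179 blocks, 2088 were accepted by their own signal or by its agreement with an accepted neighbour, and 393 were placed between neighbours. Genes were named from that placing.

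Named windows were those of the rule, named probes the 10 highest and those bright on all arrays, and likeness used Euclidean distance. The members and lists were chosen with earlier results of these data known. The median cDNA intensity lay between 568.78 and 2560.61 per array, and the number of arrays limits the precision.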

Additional observations from a re-analysis of the deposited data

How the results depend on the processing

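The mean of MEFB minus MEFF polyA over the stretch, the contrast that chose it, stayed positive under all alternatives run. It was 0.819 as deposited, 0.573 after quantile normalization, 1.142 after normexp and 1.187 after normexp then quantile normalization, and the other settings kept it within 1 SD of the MEFF polyA arrays. With 1 array left out, it lay between 0.771 and 0.867 as deposited. After normexp it was 1.142 without either total RNA array, 1.117 without MEFF polyA array 1 and 1.167 without array 2. Total minus polyA was 0.117 as deposited, 0.191 after loess, 0.214 after quantile normalization, 0.448 after normexp and 0.418 after both, and between 0.069 and 0.165 with 1 array left out. After normexp it was 0.39 and 0.507 without total RNA array 1 or 2, and 0.423 and 0.473 without MEFF polyA array 1 or 2. Windows of the stretch called between the lines numbered 0 as deposited, 10 after loess, 16 after quantile normalization, 12 after normexp, 12 with a trended prior, 16 after normexp then quantile normalization, and 0 to 16 with 1 array left out. After normexp, these counts were 7 without either total RNA array, 15 without MEFF polyA array 1 and 16 without array 2. For total against polyA RNA the count was 0, but 3 after quantile normalization, against 2.53% of all windows called higher. It rose with a MEFF polyA array left out, as deposited and after normexp, and so did the share of all windows called higher. Of the 74 windows within 200 kb on either side, 0 were called between the lines as deposited, 11 after loess, 19 after quantile normalization, 9 after normexp, 12 with a trended prior, 19 after normexp then quantile normalization, and 0 to 44 with 1 array left out. After normexp, these were 5 without either total RNA array, 20 without MEFF polyA array 1 and 18 without array 2. These counts of flanking windows take both directions. In either direction, 0.0065% of all windows were called as deposited, 2.91% after loess and 6.81% after quantile normalization. The share was 3.17% after normexp, 2.63% with a trended prior and 6.33% after normexp then quantile normalization. With a MEFF polyA array left out, the spread comes from the total RNA pair alone, and the share of all windows called rose too. Nothing is read from the counts of flanking windows there. The cause of the other changes was not tested. The input difference was -0.048, and -0.121 after normexp. Bright probes numbered 4, and 139 at the 95th percentile, for which no count over all probes was made. The combinations of normexp with quantile normalization or with an array left out were added once values were known, that is, chosen after seeing the data, and were not planned. No paired analysis was possible because no label numbers the arrays of a group.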
